A study of Mus musculus with 12 samples.

Results

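The levels of 10 immediate-early genes were followed in mouse peritoneal macrophages kept for 24 h with or without the protein SPARC. The genes were Jun, Junb, Jund, Fos, Fosb, Fosl2 and Atf3, whose products pair into AP-1 transcription factors, with Egr1 and the feedback genes Ier3 and Dusp1. They were selected by symbol, with earlier results of these data known, and are 10 of the 47729 genes in the deposited count table. Immediate-early genes are switched on within minutes of a stimulus by factors already present in the cell, often through the MAP kinases, and in macrophages they are known for their surge after microbial products. AP-1 is a dimer of leucine-zipper proteins. JUN proteins pair with each other or with FOS or ATF proteins, and FOS proteins need a JUN partner. DUSP1 is a phosphatase that switches MAP kinases off again, which makes it a negative feedback gene.

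Libraries of polyA RNA came from adherent peritoneal cells of C57BL/6 mice, 3 libraries in each of 4 groups. IL4c SPARC cells came from mice given IL-4 complex and received SPARC at 20 ug/ml, and IL4c untreated cells came from mice injected likewise and received nothing. TG SPARC and TG untreated cells came from mice injected with thioglycollate, an irritant that draws inflammatory macrophages into the peritoneum. The complex, 5 ug of IL-4 held by 25 ug of antibody per injection, was injected 2 times, 2 days apart, and cells were taken 2 days after the last injection. It is known to drive local macrophages into alternative activation and proliferation. The 3% thioglycollate was given once, 4 days earlier. Cells were allowed 2 h to attach before washing. SPARC is a glycoprotein of the extracellular matrix that regulates how cells interact with collagen. The labels name no control protein, no genetic change, and neither the age nor the number of mice behind a library, so the spread on which the p-values rest is that between these libraries and may be technical. The only culture time was 24 h, so an early surge would not be seen here.

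Totals ran from 31501941 to 42288785 counts per library, and 3 counts corresponded to 0.0707 to 0.0974 CPM (counts scaled to library size after TMM adjustment, the unit of all levels below unless FPKM is named). Macrophage markers were abundant, with a summed level of the 7 of 7 detected markers between 12700 and 18500 CPM in IL4c SPARC, 20200 and 27700 in IL4c untreated, 29900 and 30800 in TG SPARC and 22000 and 34600 in TG untreated libraries. Both TG libraries numbered 1 stood apart. Their 7 of 7 B cell markers summed to 1760 CPM with SPARC and 2250 CPM untreated, while the other 10 libraries had between 71.4 and 358 CPM. Of 5 mesothelial and fibroblast markers 3 passed the filter on low counts, Col1a1, Col1a2 and Pdgfra. The mesothelial markers Msln and Upk3b had at most 20 and 38 counts in any library. The sum over this list went the other way within TG, at 20.4 CPM with SPARC and 4.29 CPM untreated in the TG libraries numbered 1. TG replicates 2 and 3 had 157 and 175 CPM with SPARC and 105 and 92.6 CPM untreated. IL4c libraries had between 1.56 and 7.87 CPM of these markers. Of 5 neutrophil markers 1 passed the filter on low counts, S100a8, and the sum over the list ran from 25.5 to 39.3 CPM in IL4c SPARC against 6.48 to 9.27 in IL4c untreated, and from 27.6 to 51.8 CPM in TG SPARC against 6.75 to 11.4 in TG untreated. S100a9 had at most 3 counts and Ly6g at most 1 count in any library. The 3 of 3 monocyte markers summed to between 14.3 and 37.6 CPM in IL4c SPARC, 23 and 33.9 in IL4c untreated, 219 and 255 in TG SPARC and 37.5 and 137 in TG untreated libraries. The part of these shifts in the results below was not tested. In bulk RNA, more cells of a type and more RNA per cell cannot be told apart. Markers of large resident macrophages summed to between 131 and 283 CPM in IL4c SPARC, 291 and 709 in IL4c untreated, 18.9 and 37.4 in TG SPARC and 28.1 and 129 in TG untreated libraries.

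SPARC-treated macrophages held more Ier3 and more Junb than untreated ones after both injections. Ier3 was 3.2-fold higher in IL4c and 3.51-fold higher in TG cells, and Junb was 1.73-fold and 1.63-fold higher. None of the other 7 tested members, among them Fos, Jun, Atf3 and Egr1, passed in either SPARC comparison in the fit without pairing. With the replicate number as a block, Jun and Atf3 passed as lower in IL4c cells and Fosl2 as higher in TG cells, with the values given under each gene. Each of 15232 genes was tested by quasi-likelihood in edgeR, and called where its p, adjusted over all of them after Benjamini and Hochberg, was under 0.05. Fosb had too few counts to be tested.

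In the fit without pairing, 2 of the 9 tested members rose and 0 fell with SPARC in IL4c cells, where 15.1% of all tested genes rose and 12.7% fell. In TG cells 2 rose and 0 fell, where 6.73% of all tested genes rose and 4.52% fell. With the replicate block 2 rose and 2 fell in IL4c cells, where 3474 of all 15232 tested genes rose and 3406 fell. In TG cells 3 rose and 0 fell with the block, where 2175 of all tested genes rose and 1990 fell. At an unadjusted p under 0.05 edgeR gave 3 members higher and 0 lower in each comparison. DESeq2 passed 2 higher and 0 lower in IL4c and 3 higher and 0 lower in TG cells, and limma-voom passed 2 higher and 0 lower in both. Over all tested genes DESeq2 passed 2628 higher and 2372 lower in IL4c, and 1514 and 1118 in TG cells. For limma-voom these counts were 2272 and 1928 in IL4c, and 986 and 655 in TG cells. The median log2 fold change of the 9 members was −0.05 in IL4c cells against 0 over all tested genes, and 0.04 in TG cells against −0.03 over all tested genes.

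**Figure D1:**
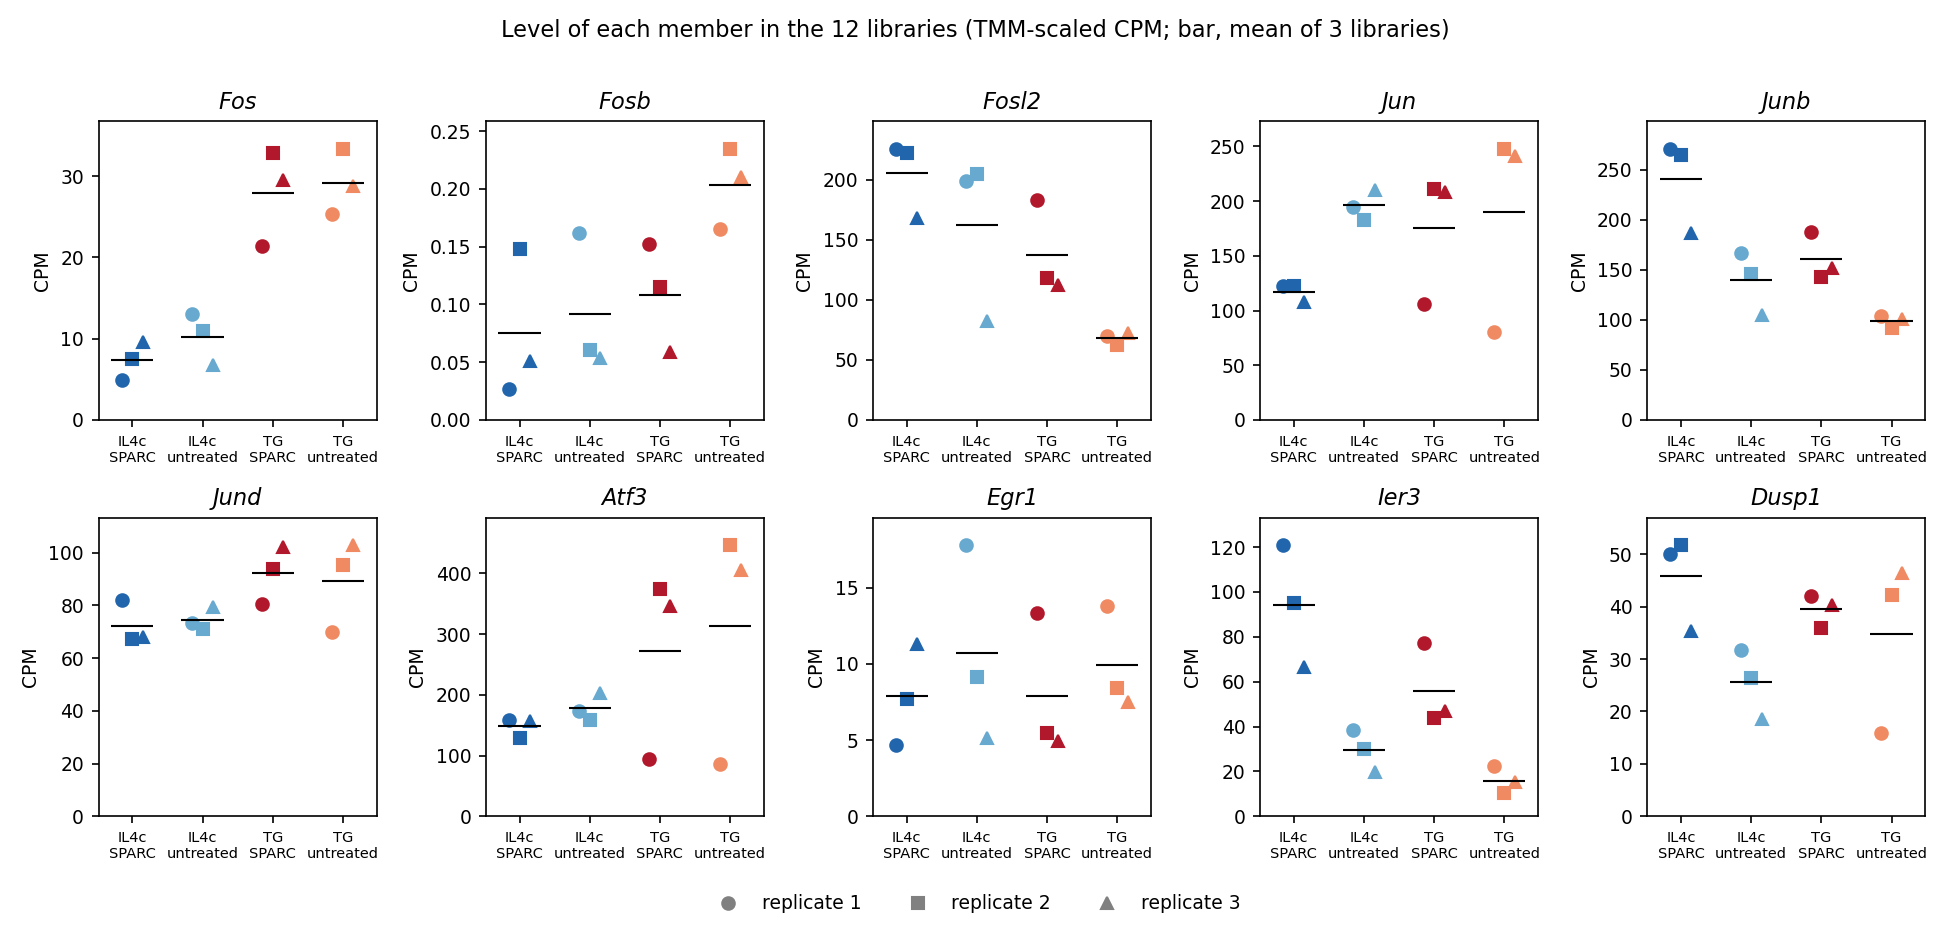
Level of each of the 10 members in every library, in CPM on a linear axis that starts at 0 in each panel. Points are libraries, shapes are replicate numbers and bars are means of 3 libraries. Ier3 and Junb are higher in each SPARC group than in its untreated group without overlap, Fos is lower in both IL4c groups than in both TG groups, and the circles of Jun and Atf3 in the TG groups lie below the other TG points.

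Ier3 encodes a short-lived stress-induced protein that modulates cell survival and is a known target of NF-kB. In IL4c SPARC libraries it stood at 121, 95.2 and 66.5 CPM, against 38.5, 30 and 19.9 CPM in IL4c untreated libraries. In TG SPARC libraries it stood at 77.4, 43.9 and 46.8 CPM, against 22.4, 10.3 and 15.1 CPM in TG untreated libraries. The groups did not overlap in either comparison. Ier3 rose with SPARC by 1.68 ± 0.36 (log2 fold change ± SE, 3.2-fold, edgeR adjusted p = 0.00782, n = 3 each) in IL4c cells. It rose by 1.81 ± 0.37 (3.51-fold, edgeR adjusted p = 0.014, n = 3 each) in TG cells. Between libraries of the same number, its log2 ratio of SPARC over untreated was 1.66, 1.67 and 1.74 in IL4c cells and 1.79, 2.1 and 1.63 in TG cells. The ratios of the 6 pairs thus lay between 1.63 and 2.1, although the untreated level itself varied from 10.3 to 38.5 CPM. Its IL4c call held in all 25 alternative fits. The TG call was lost in 2 of 25, with the compared groups fitted alone and without TG untreated replicate 3, at an edgeR adjusted p of up to 0.0596.

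Junb, a JUN protein that activates fewer AP-1 targets than Jun and often opposes it, stood at 271, 265 and 187 CPM in IL4c SPARC libraries, against 167, 146 and 105 CPM in IL4c untreated libraries. It stood at 188, 143 and 152 CPM in TG SPARC libraries, against 104, 91.6 and 101 CPM in TG untreated libraries. No untreated library reached the lowest SPARC library of its injection. Junb rose by 0.79 ± 0.19 (log2 fold change ± SE, 1.73-fold, edgeR adjusted p = 0.0135, n = 3 each) in IL4c cells, a call that held in all 25 alternative fits. In TG cells it rose by 0.70 ± 0.19 (1.63-fold, edgeR adjusted p = 0.0432, n = 3 each). The TG value stayed between 0.62 and 0.78, but the call passed in 12 of 25 alternative fits and in 4 of 12 that left out 1 library, with an adjusted p of up to 0.14. It was lost without any single TG library, without replicate 2 of IL4c SPARC or of IL4c untreated, and without both TG libraries numbered 1 (0.63, edgeR adjusted p = 0.109). All 3 same-numbered pairs rose in each injection, by 0.69, 0.86 and 0.83 in IL4c cells and by 0.86, 0.64 and 0.59 in TG cells on the log2 scale.

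The promoter sequences of the members that rose, Ier3 and Junb, are set beside those of Fos and Dusp1, which did not pass, to show how the letters differ. They end at the RefSeq start of each gene, or where an annotated exon of the gene begins (GENCODE, GRCm38), and capitals mark matches to the motifs searched. For Dusp1 the RefSeq start lies inside the GENCODE span of the gene, not at its upstream end. Ier3 lies at chr17:35821684-35822923 on the plus strand, Junb at chr8:84974484-84978718 on the minus strand, Fos at chr12:85473890-85477273 on the plus strand and Dusp1 at chr17:26505590-26562128 on the minus strand, all protein-coding. The sequences are read 5′ to 3′ on each gene's own strand from RefSeq, build GRCm38.p6, at chr17:35821513-35821683, chr8:84978749-84978948, chr12:85473690-85473889 and chr17:26508520-26508672.
Ier3: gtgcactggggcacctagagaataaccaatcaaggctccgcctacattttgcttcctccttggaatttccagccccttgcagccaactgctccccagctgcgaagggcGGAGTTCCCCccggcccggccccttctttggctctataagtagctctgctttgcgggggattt
Junb: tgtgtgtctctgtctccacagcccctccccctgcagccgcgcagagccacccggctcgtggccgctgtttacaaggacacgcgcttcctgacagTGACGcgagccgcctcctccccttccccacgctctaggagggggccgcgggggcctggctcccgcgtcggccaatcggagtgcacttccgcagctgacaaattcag
Fos: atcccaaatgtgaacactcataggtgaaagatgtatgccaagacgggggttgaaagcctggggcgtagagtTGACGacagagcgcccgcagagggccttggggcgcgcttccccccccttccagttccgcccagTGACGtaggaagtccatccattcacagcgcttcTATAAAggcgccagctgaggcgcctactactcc
Dusp1: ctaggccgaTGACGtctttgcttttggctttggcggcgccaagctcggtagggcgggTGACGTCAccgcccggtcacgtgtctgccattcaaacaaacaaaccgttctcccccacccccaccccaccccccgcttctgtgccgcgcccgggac
The capitals in Ier3 are an NF-kB motif that begins 92 bases before the start. Those in Junb are TGACG, the core of the cAMP response element (CRE), at 106 bases before the start. Fos has TGACG at 129 and 66 bases and TATAAA at 33 bases before the start. Dusp1 has TGACG at 191 bases and, at 143 bases, the whole palindromic CRE TGACGTCA, which holds TGACG on both strands.

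The promoters of 9 members were searched, over the 250 bases before each RefSeq start and on both strands. That of Egr1 was left out of the search. Windows with TGACG were those of Fos, Fosb, Junb, Atf3 and Dusp1, and 17.8% of 32851 windows in the table hold it. The NF-kB motif was matched in Ier3 and in Fos, Fosb and Fosl2, and in 7.25% of all windows. Among these 9 members TGACGTCA was in Dusp1 alone and TATAAA in Fos alone. They are in 1.55% and 12.4% of all windows. No window of these 9 members held the AP-1 motif TGANTCA, the STAT motif TTCNNNGAA or the CArG box of serum response factor. Those motifs are in 6.75%, 7.02% and 1.47% of all windows. The other members lie at chr4:95049034-95052222 (Jun, minus strand), chr8:70698949-70700616 (Jund, plus), chr7:19302696-19310051 (Fosb, minus), chr5:32135801-32157842 (Fosl2, plus) and chr1:191170296-191218039 (Atf3, minus), with Egr1 on chromosome 18. Exons of 4 members share bases with a gene on the opposite strand, 877 for Jund with Gm11175, 232 for Jun with Junos, 173 for Junb with Prdx2 and 11 for Dusp1 with Ergic1. The use of strand in counting is not given in the sources used here, so reads from those bases cannot be told apart. The RefSeq window of Fosl2 falls inside an annotated exon and is not printed. That of Jund lies upstream of the GENCODE start, and those of Dusp1 and Atf3 lie inside the GENCODE spans of their genes. The members that rose with SPARC thus shared no searched motif in these windows.

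**Figure D2:**
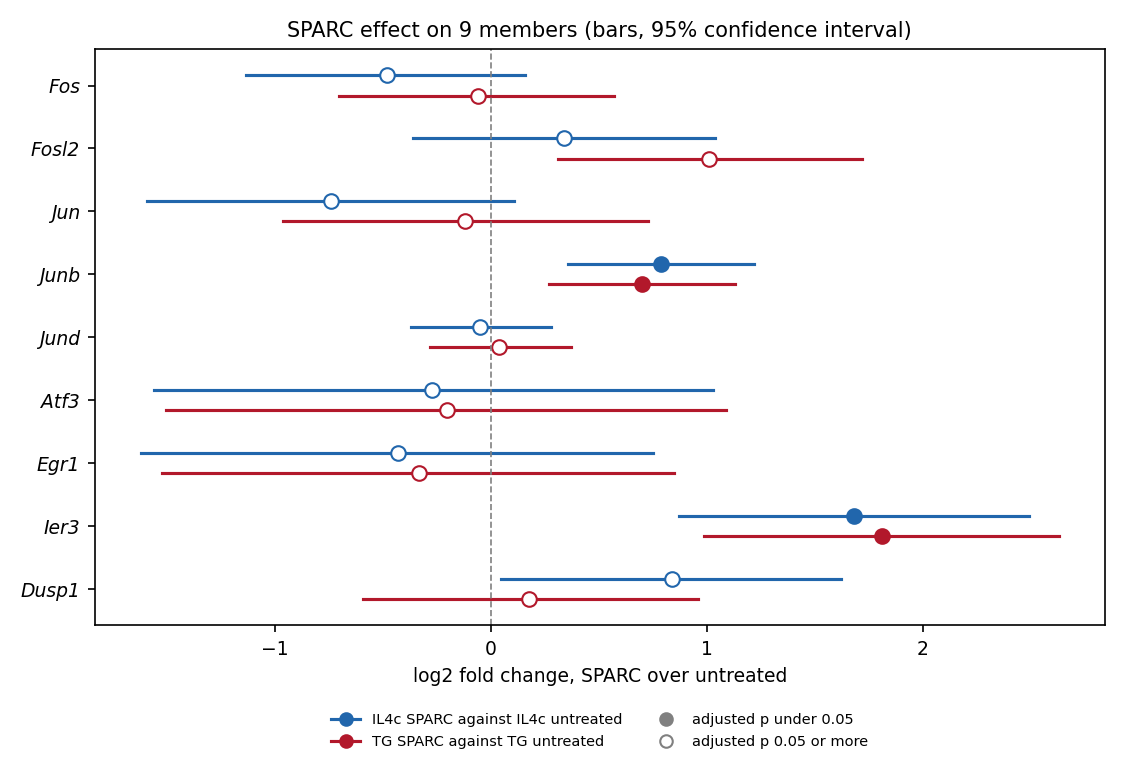
Log2 fold change of SPARC over untreated cells for the 9 tested members, with 95% confidence intervals as bars. Filled points passed at an adjusted p under 0.05, which Ier3 and Junb did in both injections, while the intervals of Fos, Jun, Jund, Atf3 and Egr1 include 0 in both.

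Fosl2 encodes FRA-2, a FOS protein without the strong activation domain of Fos that is often seen late after a stimulus. It stood at 183, 118 and 112 CPM in TG SPARC libraries, against 69.6, 62.4 and 72.5 CPM in TG untreated libraries. All SPARC libraries lay above all untreated ones, with a log2 fold change of 1.01 ± 0.32 (SE, 2.02-fold, n = 3 each) and an edgeR adjusted p of 0.0695. With the replicate number as a block the value was 0.98 and the adjusted p was 0.0168. It also passed with DESeq2, without IL4c untreated replicate 3 and without both IL4c libraries numbered 3, which is 4 of 25 alternative fits. In IL4c cells Fosl2 stood at 226, 222 and 168 CPM with SPARC, against 199, 205 and 82.7 CPM untreated. Replicate 3 was the low library of both IL4c groups, and the groups overlapped (0.34 ± 0.31, SE, edgeR adjusted p = 0.467, n = 3 each). The difference between the 2 SPARC effects on Fosl2, IL4c minus TG, was −0.67 on the log2 scale with a 95% interval of −1.67 to 0.32, and did not pass.

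Fos, the founding member of its family and a very short-lived messenger, did not pass with SPARC in either injection. It stood at 21.4, 32.9 and 29.5 CPM in TG SPARC libraries, against 25.4, 33.4 and 28.8 CPM in TG untreated libraries. In IL4c cells it stood at 4.93, 7.45 and 9.59 CPM with SPARC, against 13.1, 11 and 6.71 CPM untreated. The 2 groups overlapped in both injections. The log2 fold changes were −0.48 ± 0.29 (SE, edgeR adjusted p = 0.248, n = 3 each) in IL4c and −0.06 ± 0.28 (SE, edgeR adjusted p = 0.924, n = 3 each) in TG cells. The 95% intervals were −1.13 to 0.16 in IL4c and −0.7 to 0.57 in TG cells. Same-numbered IL4c pairs differed in sign, at −1.41, −0.56 and 0.52.

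Fosb was at the edge of detection. It had 1, 6 and 2 counts in IL4c SPARC libraries, against 5, 2 and 2 counts in IL4c untreated libraries. It had 5, 4 and 2 counts in TG SPARC libraries, against 7, 9 and 8 counts in TG untreated libraries. All 12 values lay between 1 and 9 counts, too few for the test.

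Jun, the JUN protein with the strongest activation domain, stood at 122, 122 and 108 CPM in IL4c SPARC libraries, against 195, 183 and 210 CPM in IL4c untreated libraries. Every SPARC library lay below every untreated one. The log2 fold change was −0.74 ± 0.38 (SE, 1.67-fold lower, n = 3 each) with an edgeR adjusted p of 0.178. With the replicate number as a block the value was −0.74 and the adjusted p was 0.00394. It also passed with the compared groups fitted alone, without TG untreated replicate 1 and without both TG libraries numbered 1 (−0.74, edgeR adjusted p = 0.000129). In TG cells Jun stood at 106, 211 and 208 CPM with SPARC, against 80.2, 248 and 241 CPM untreated. The libraries numbered 1 were the low ones of both TG groups. The TG comparison gave −0.12 ± 0.38 (SE, edgeR adjusted p = 0.888, n = 3 each). The difference of the 2 effects, IL4c minus TG, was −0.63 with a 95% interval of −1.83 to 0.57 and did not pass, but passed without both TG libraries numbered 1 (−0.54, edgeR adjusted p = 0.039).

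Jund, a JUN protein kept at a steady level in most cells, varied least. It stood at 81.9, 67.2 and 67.9 CPM in IL4c SPARC libraries, against 73.5, 71 and 79.5 CPM in IL4c untreated libraries. It stood at 80.7, 94 and 102 CPM in TG SPARC libraries, against 70, 95.4 and 103 CPM in TG untreated libraries. The SPARC effects were −0.05 ± 0.15 (SE, edgeR adjusted p = 0.848, n = 3 each) in IL4c and 0.04 ± 0.15 (SE, edgeR adjusted p = 0.891, n = 3 each) in TG cells. Their 95% intervals, −0.37 to 0.28 and −0.28 to 0.37, were the narrowest of the 9 tested members.

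Atf3, a stress-induced factor that pairs with JUN proteins and is known to restrain inflammatory genes in macrophages, stood at 159, 129 and 157 CPM in IL4c SPARC libraries, against 174, 158 and 203 CPM in IL4c untreated libraries. It stood at 93.6, 375 and 347 CPM in TG SPARC libraries, against 86.8, 447 and 405 CPM in TG untreated libraries. The libraries numbered 1 were again the low ones in both TG groups. The log2 fold changes were −0.27 ± 0.58 (SE, edgeR adjusted p = 0.77, n = 3 each) in IL4c and −0.20 ± 0.58 (SE, edgeR adjusted p = 0.87, n = 3 each) in TG cells. All 3 same-numbered IL4c pairs were lower with SPARC, by −0.13, −0.3 and −0.37, and with the replicate number as a block Atf3 passed (−0.27, edgeR adjusted p = 0.0484).

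Egr1, a zinc-finger factor induced through serum response factor, was low and scattered. It stood at 4.67, 7.72 and 11.3 CPM in IL4c SPARC libraries, against 17.8, 9.14 and 5.14 CPM in IL4c untreated libraries. It stood at 13.3, 5.43 and 4.94 CPM in TG SPARC libraries, against 13.8, 8.42 and 7.51 CPM in TG untreated libraries. Here the libraries numbered 1 were the high ones of both TG groups. The log2 fold changes were −0.43 ± 0.53 (SE, edgeR adjusted p = 0.589, n = 3 each) in IL4c and −0.33 ± 0.53 (SE, edgeR adjusted p = 0.75, n = 3 each) in TG cells. Same-numbered IL4c pairs gave −1.93, −0.24 and 1.14, so 1 pair went the other way.

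Dusp1, whose phosphatase acts mainly on the stress-activated MAP kinases in macrophages, stood at 50.1, 51.8 and 35.4 CPM in IL4c SPARC libraries, against 31.8, 26.3 and 18.6 CPM in IL4c untreated libraries. The SPARC libraries all lay above the untreated ones, and same-numbered pairs gave log2 ratios of 0.65, 0.98 and 0.92. The log2 fold change was 0.84 ± 0.35 (SE, 1.79-fold, 95% interval 0.05 to 1.62, n = 3 each) with an edgeR adjusted p of 0.104. It passed in 3 of 25 alternative fits, namely with the compared groups alone, without TG untreated replicate 1 and without both TG libraries numbered 1 (0.84, edgeR adjusted p = 0.0115). In TG cells it stood at 42.1, 36 and 40.4 CPM with SPARC, against 15.8, 42.2 and 46.5 CPM untreated. TG untreated replicate 1 was the single low library, and the fold change of 0.18 ± 0.35 (SE, edgeR adjusted p = 0.797, n = 3 each) became −0.19 without both TG libraries numbered 1.

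**Figure D3:**
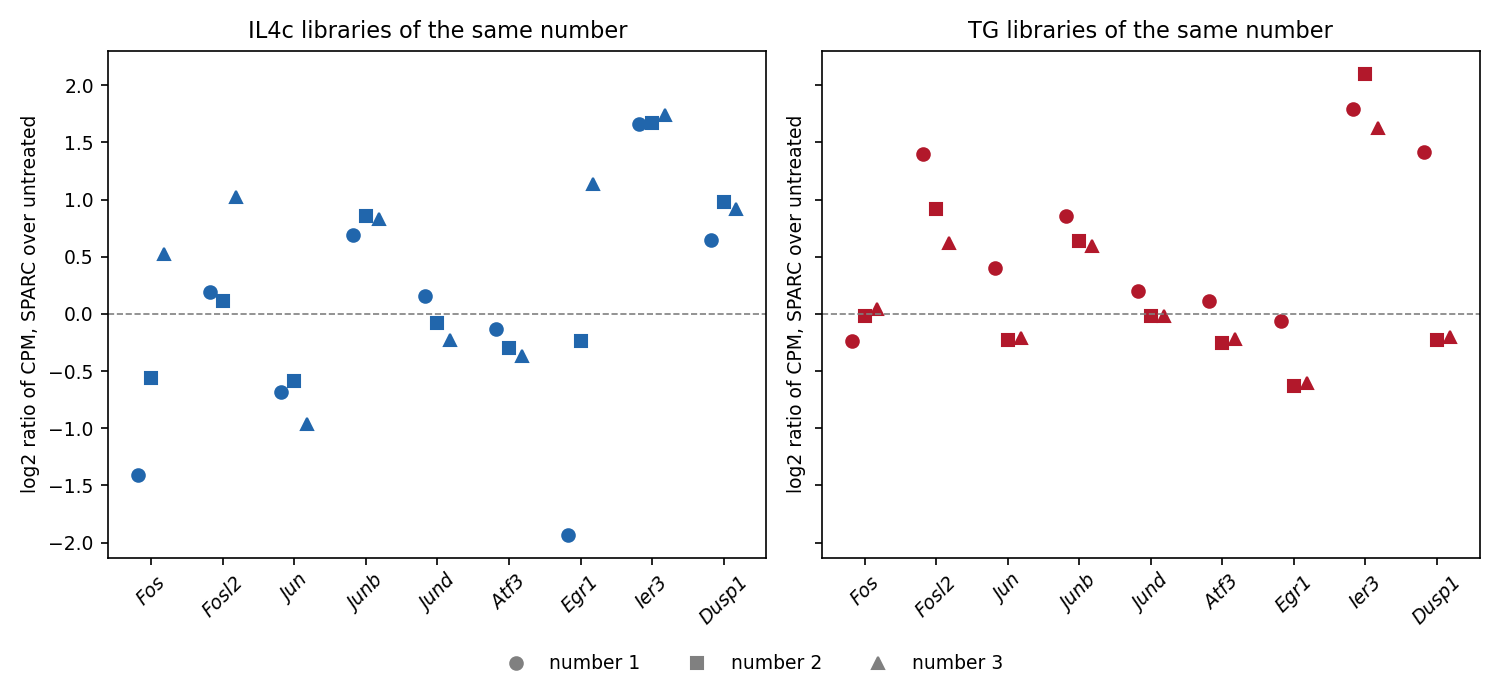
Log2 ratio of CPM in SPARC over untreated cells between libraries of the same number, for the 9 tested members in IL4c (left) and TG cells (right). The 3 points of Ier3 lie between 1.66 and 1.74 in IL4c cells, those of Egr1 in IL4c cells spread from −1.93 to 1.14, and Dusp1 in TG cells has 1 point at 1.42 and a pair near −0.2.

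The SPARC effects were then set against each other directly. By the difference of the effects, IL4c minus TG, edgeR passed 0 members in either direction and 0 of 15232 genes, so 0% were higher and 0% lower. At an unadjusted p under 0.05 edgeR gave 0 members, 865 genes with a larger effect in IL4c cells and 747 with a larger effect in TG cells. DESeq2 passed 171 and 193 genes and 0 members, and limma-voom passed 0 genes. For Ier3 the difference was −0.13 ± 0.50 (SE, 95% interval −1.25 to 0.99), and for Junb it was 0.09 ± 0.27 (SE, 95% interval −0.52 to 0.69). Equal effects were therefore not shown, since these intervals span differences in both directions.

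Untreated IL4c cells differed from untreated TG cells in the make-up of their FOS family, with less Fos and more Fosl2. Of 9 tested members, 1 was higher and 1 lower in IL4c untreated cells, where 10.2% of all tested genes were higher and 10.8% lower. With SPARC, 0 were higher and 1 was lower in IL4c SPARC than in TG SPARC cells, where 10.9% of all tested genes were higher and 10.1% lower. At an unadjusted p under 0.05 edgeR gave 1 member higher and 2 lower there, DESeq2 passed 1 higher and 1 lower, and limma-voom 0 higher and 1 lower. Over all tested genes these counts were 2665 and 2877, 2238 and 1951, and 1750 and 1401. In the untreated comparison edgeR gave 3 higher and 1 lower at an unadjusted p under 0.05, DESeq2 passed 3 higher and 1 lower, and limma-voom 1 higher and 1 lower. There the counts over all tested genes were 2515 and 2996, 2183 and 2040, and 1611 and 1441. The median log2 fold change of the members was 0.05 untreated and 0 with SPARC, against −0.05 and −0.03 over all tested genes.

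Fos was lower in IL4c SPARC than in TG SPARC cells by −1.93 ± 0.30 (log2 fold change ± SE, 3.82-fold lower, edgeR adjusted p = 0.00223, n = 3 each). In untreated cells it was lower in IL4c by −1.51 ± 0.29 (2.85-fold lower, edgeR adjusted p = 0.00764, n = 3 each). No IL4c library exceeded 13.1 CPM and no TG library was under 21.4 CPM. Both calls held in all 24 alternative fits. Fosl2 was higher in IL4c untreated than in TG untreated cells by 1.25 ± 0.32 (SE, 2.38-fold, edgeR adjusted p = 0.0225, n = 3 each). That call held in 18 of 24 alternative fits. It was lost with the compared groups alone, with unfiltered FPKM values, without TG untreated replicate 2 or 3 and without IL4c untreated replicate 1 or 2, at an edgeR or limma adjusted p of up to 0.0843. With SPARC the Fosl2 difference was 0.58 ± 0.32 (SE, edgeR adjusted p = 0.215, n = 3 each), with overlap between the groups.

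Junb and Ier3 were higher in each IL4c mean than in the TG mean of the same treatment, below the threshold. Junb differed by 0.58 ± 0.19 with SPARC (SE, edgeR adjusted p = 0.0552, n = 3 each, passing in 9 of 24 alternative fits) and by 0.50 ± 0.19 untreated (SE, edgeR adjusted p = 0.0911, n = 3 each). Ier3 differed by 0.75 ± 0.36 with SPARC (SE, edgeR adjusted p = 0.157, n = 3 each) and by 0.88 ± 0.36 untreated (SE, edgeR adjusted p = 0.107, n = 3 each). Atf3 averaged 148 ± 17.2 CPM in IL4c SPARC and 272 ± 155 in TG SPARC libraries, and 179 ± 22.7 in IL4c untreated and 313 ± 197 in TG untreated libraries (SD, n = 3 each). Without both TG libraries numbered 1, Atf3 passed as lower in IL4c cells, at −1.30 with SPARC (edgeR adjusted p = 0.000171) and −1.24 untreated (edgeR adjusted p = 0.000206), where all 12 libraries had given −0.87 and −0.81. In the same fit Jun passed as lower at −0.85 with SPARC (edgeR adjusted p = 0.000189) and −0.31 untreated (edgeR adjusted p = 0.0198), where all 12 libraries had given −0.58 and 0.05. Ier3 then passed as higher, at 1.05 with SPARC (edgeR adjusted p = 0.0355) and 1.22 untreated (edgeR adjusted p = 0.021). In that fit 2 members were higher and 4 lower with SPARC, and 2 were higher and 5 lower untreated. Of 15467 genes tested there, 2731 were higher and 2856 lower with SPARC, and 2953 and 3049 untreated. Over all 12 libraries those counts were 1664 and 1532, and 1548 and 1649, of 15232 genes. The reported calls on Fos and Fosl2 also passed without both TG libraries numbered 1. Fos gave −2.1 with SPARC (edgeR adjusted p = 0.00124) and −1.6 untreated (edgeR adjusted p = 0.00403). Fosl2 gave 1.27 untreated (edgeR adjusted p = 0.0219). More calls between the injections, of members and of all genes alike, were thus made without this pair of TG libraries. Their B cell markers were the highest, and their sum over the mesothelial and fibroblast list the lowest of the TG libraries. Egr1, Jund and Dusp1 had log2 differences of 0, −0.35 and 0.21 with SPARC and 0.10, −0.26 and −0.44 untreated, and none passed over all 12 libraries.

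**Figure D4:**
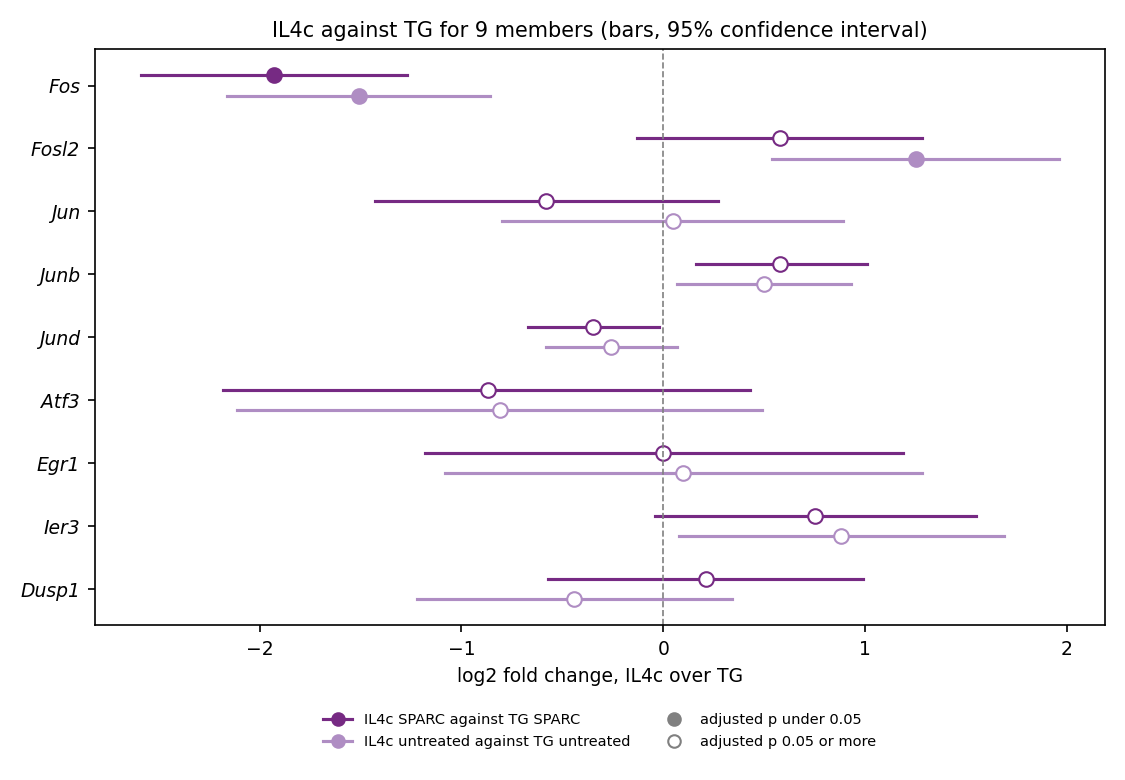
Log2 fold change of IL4c over TG cells for the 9 tested members, with SPARC (dark) and untreated (light), with 95% confidence intervals as bars. Filled points passed at an adjusted p under 0.05, which were Fos in both treatments and Fosl2 in untreated cells.

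On the length-scaled FPKM values, which allow genes to be compared within a group, Junb was the most abundant member in IL4c SPARC cells at 133 ± 25.7 FPKM (SD, n = 3), followed by Ier3 at 87.2 ± 25.9 and Atf3 at 75.9 ± 9.85, with overlap between neighbours. In IL4c untreated cells Atf3 led at 91.1 ± 12.5 FPKM, ahead of Junb at 76.9 ± 17.3 and Jun at 61.3 ± 4.91, again with overlap, and Ier3 came next at 27.1 ± 8.62 without overlap with Jun. In TG SPARC cells Atf3 at 142 ± 79.9 FPKM overlapped Junb at 91.6 ± 15.3, and Jun at 56.2 ± 18.6 lay below Junb and overlapped Ier3 at 53.4 ± 18.7. In TG untreated cells Atf3 at 169 ± 103 FPKM overlapped Jun at 63 ± 30, which overlapped Junb at 58.9 ± 6.04. Jund, Fosl2 and Dusp1 took the middle ranks between 11.3 and 33.3 FPKM on average in every group, joined by Ier3 in IL4c and TG untreated cells and Fos in both TG groups. Egr1 ranked next to last with means between 2.55 and 3.46 FPKM, and Fosb was last with means between 0.03 and 0.07 FPKM.

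The balance within each family can be read from the same values, as a description. The FPKM ratio of Junb to Jun was 3.93, 3.85 and 3.05 in IL4c SPARC libraries, against 1.51, 1.41 and 0.884 in IL4c untreated libraries. It was 3.14, 1.19 and 1.29 in TG SPARC libraries, against 2.29, 0.652 and 0.741 in TG untreated libraries. The ratio was higher with SPARC in all 6 same-numbered pairs, and the IL4c groups did not overlap. The FPKM ratio of Fosl2 to Fos was 14.6, 9.49 and 5.49 in IL4c SPARC libraries, against 4.69, 5.87 and 3.39 in IL4c untreated libraries. It was 2.65, 1.11 and 1.19 in TG SPARC libraries, against 0.841, 0.569 and 0.775 in TG untreated libraries. All 6 IL4c libraries lay above all 6 TG libraries in this ratio.

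Likeness of pattern was measured as the root mean square (RMS) difference of centred log2(CPM + 1) values over the 12 libraries, where a smaller value is more alike. Among the members Junb and Fosl2 were closest to each other, at 0.31, followed by Jun and Atf3 at 0.40, and Ier3 was nearest to Junb at 0.56. Over 8600 tested genes of at least 10 CPM on average, the nearest were Ugcg to Junb at 0.16, Fam217b to Fosl2 at 0.23, Soat1 to Jun at 0.23, Lgals3 to Atf3 at 0.22 and Agrn to Ier3 at 0.29. Neurl3 was nearest to Fos at 0.32, Csf2rb to Dusp1 at 0.27, Ikzf1 to Egr1 at 0.39 and Cdc42bpb to Jund at 0.08. Jund's small value goes with its own small spread, an RMS of 0.21 around its mean, against 1.02 for Ier3. That own RMS was 0.50 for Junb, 0.67 for Fosl2, 0.52 for Jun and 0.77 for Atf3. A gene flat over the 12 libraries would differ from a member by the member's own RMS. The value of 0.56 between Ier3 and Junb exceeded the own RMS of Junb.

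Some other feedback genes of the MAP kinase cascade rose with SPARC. Of 14 tested genes of a list of 15 (Spry4 was too low to test), 6 rose and 1 fell in IL4c cells, where 15.1% of all tested genes rose and 12.7% fell, with a median log2 fold change of 0.32 against 0 over all tested genes. In TG cells 6 rose and 0 fell, where 6.73% of all tested genes rose and 4.52% fell, with a median of 0.48 against −0.03 over all tested genes. Dusp4 and Dusp6, phosphatases that act on ERK in the nucleus and the cytoplasm, showed the largest rises. Dusp4 averaged 19.7 ± 10.7 CPM in IL4c SPARC and 1.22 ± 0.509 in IL4c untreated libraries (SD, n = 3 each), a log2 fold change of 4.00 ± 0.47 (SE, edgeR adjusted p = 0.000369, n = 3 each). It averaged 30.4 ± 2.61 CPM in TG SPARC and 6.92 ± 2.6 in TG untreated libraries (SD, n = 3 each), a change of 2.14 ± 0.42 (SE, edgeR adjusted p = 0.0128, n = 3 each). Dusp6 averaged 20.1 CPM in IL4c SPARC and 3.74 in IL4c untreated libraries, and 45.3 CPM in TG SPARC and 13.4 in TG untreated libraries, changes of 2.42 ± 0.37 and 1.75 ± 0.35 (SE). Spred2, which blocks the activation of RAF by RAS, rose by 1.36 ± 0.19 in IL4c and 1.35 ± 0.19 in TG cells (SE). Dusp16, Spred1 and Errfi1, an inhibitor of the EGF receptor, also rose in both, by 1.15, 0.49 and 0.49 in IL4c and by 1.01, 0.42 and 0.55 in TG cells on the log2 scale. Dusp7 was the one that fell in IL4c cells, by 0.55. The difference between the SPARC effects on Dusp4, IL4c minus TG, was 1.86 ± 0.60 (SE, edgeR adjusted p = 0.3, n = 3 each) and did not pass. In TG cells the count of 6 was 3 with the compared groups alone and without TG untreated replicate 2 or 3. With the replicate block 1 gene also fell there, as did 1990 of all 15232 tested genes. In IL4c cells the count that fell was 0 without IL4c untreated replicate 2 or both IL4c libraries numbered 3, and 2 without TG SPARC replicate 1 or both TG libraries numbered 1.

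**Figure D5:**
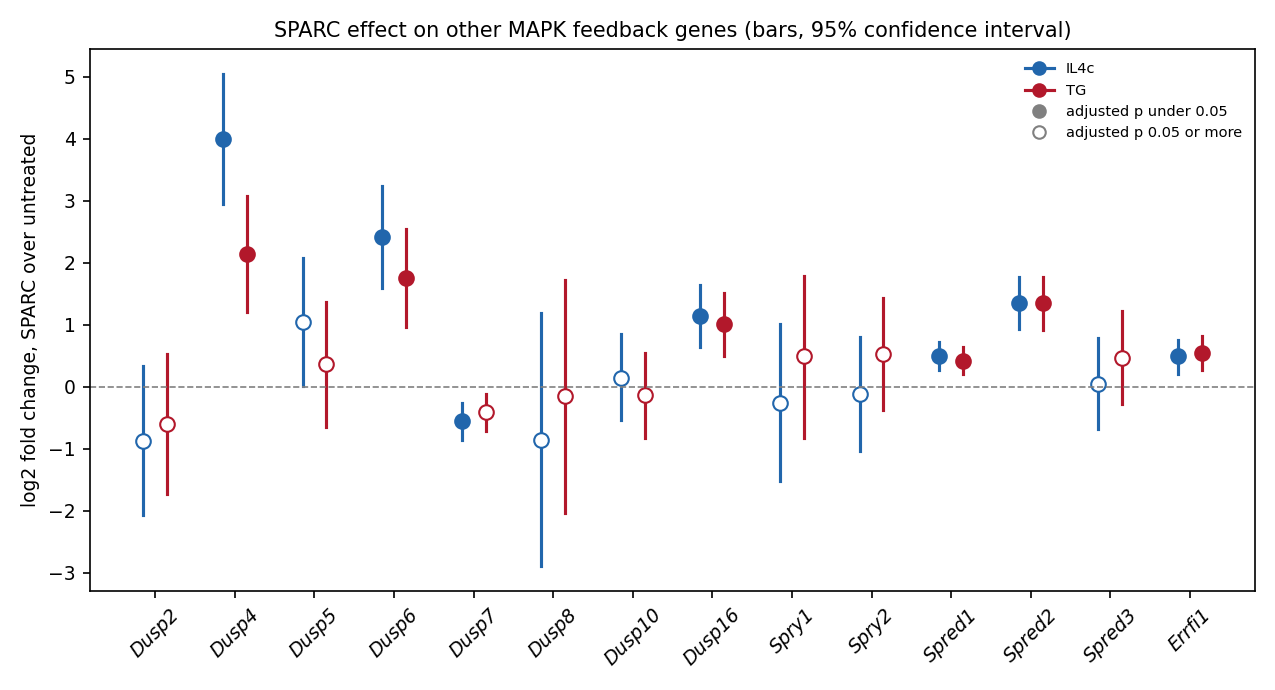
Log2 fold change of SPARC over untreated cells for the 14 tested feedback genes other than the members, in IL4c (blue) and TG cells (red), with 95% confidence intervals as bars. Filled points passed at an adjusted p under 0.05. Dusp4, Dusp6, Dusp16, Spred1, Spred2 and Errfi1 are filled and above 0 in both, and Dusp7 is filled and below 0 in IL4c cells.

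Between injections, 4 of these 14 feedback genes were lower and 1 higher in IL4c untreated than in TG untreated cells. Dusp4 was lower by −2.49 ± 0.45, Dusp6 by −1.84 ± 0.36, Dusp2 by −2.27 ± 0.54 and Spry2 by −1.41 ± 0.42, and Spred2 was higher by 0.70 ± 0.19 (log2 fold change ± SE). With SPARC 3 were lower and 2 higher in IL4c cells, with Spry2 at −2.06, Dusp2 at −2.54 and Dusp6 at −1.17, and Spred2 at 0.71 and Spred1 at 0.32. The medians were −0.59 untreated and −0.44 with SPARC, against −0.05 and −0.03 over all tested genes. Here 10.2% of all tested genes were higher and 10.8% lower untreated, and 10.9% higher and 10.1% lower with SPARC. The higher count ran from 0 to 3 untreated and from 0 to 2 with SPARC over 24 alternative fits, and over the same ranges when 1 library was left out, with the SPARC count of 2 changed in 19 of the 24. Over those fits the lower count ran from 2 to 8 untreated and from 1 to 6 with SPARC, highest without both TG libraries numbered 1.

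The kinases that carry the signal were read from a list of their own. Of 23 tested, 2 rose and 3 fell in IL4c cells, where 15.1% of all tested genes rose and 12.7% fell. In TG cells 2 rose and 2 fell, where 6.73% of all tested genes rose and 4.52% fell. The medians were −0.03 and −0.05. The TG count that rose ran from 1 to 3 over 25 alternative fits, also when 1 library was left out, and the count that fell was 1 or 2. Map2k1, which encodes the ERK kinase MEK, averaged 210 ± 19.3 CPM in IL4c SPARC and 82.4 ± 7.69 in IL4c untreated libraries, and 169 ± 7.96 CPM in TG SPARC and 91.7 ± 12.1 in TG untreated libraries (SD, n = 3 each). It rose in both, by 1.35 ± 0.12 (SE, edgeR adjusted p = 8.79e-05, n = 3 each) and 0.88 ± 0.12 (SE, edgeR adjusted p = 0.00221, n = 3 each) on the log2 scale. Rps6ka3, an ERK-activated kinase, fell in both, by 0.74 in IL4c and 0.60 in TG cells, and Map3k8, the kinase that links NF-kB signalling to ERK in macrophages, fell by 0.34 and 0.47. Braf fell by 0.64 in IL4c cells. Mapk13 passed as higher in both but averaged under 1 CPM. With the replicate block 4 rose and 5 fell in IL4c cells, where 3474 of all 15232 tested genes rose and 3406 fell.

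Between injections 0 kinases were higher and 1 lower in IL4c untreated cells (Map3k8, by −0.40), and with SPARC 1 was higher and 2 lower. The lower ones with SPARC were Mapkapk3 at −0.88 and Map2k3 at −0.41, and Mapk13 was the higher one. Over the 24 alternative fits the lower count ran from 0 to 5 untreated and from 0 to 4 with SPARC, and it was 0 without TG SPARC replicate 2 or 3 and without IL4c SPARC replicate 1 or 3 for the SPARC comparison.

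Among 12 related leucine-zipper genes of the AP-1, BATF, ATF and MAF families, 3 rose and 2 fell with SPARC in IL4c cells (15.1% and 12.7% of all tested genes) and 4 rose and 1 fell in TG cells (6.73% and 4.52% of all tested genes), with medians of 0.31 and 0.30. Maf, a large MAF factor of mature macrophages, averaged 97.9 ± 9.98 CPM in IL4c SPARC and 478 ± 34.1 in IL4c untreated libraries, and 248 ± 17.8 CPM in TG SPARC and 502 ± 184 in TG untreated libraries (SD, n = 3 each). It fell by 2.29 on the log2 scale (SE 0.22, edgeR adjusted p = 0.000157, n = 3 each) in IL4c cells and by 1.01 (SE 0.22, edgeR adjusted p = 0.0167, n = 3 each) in TG cells. The small MAF gene Maff rose by 1.99 and 1.66, Mafg by 0.35 and 0.41, and Batf2, of the BATF family, by 1.49 and 1.99. Jdp2, which represses AP-1 sites, rose by 0.68 in TG cells, and Atf7 fell by 0.34 in IL4c cells. With the replicate block 6 rose in IL4c cells, as did 3474 of all 15232 tested genes. With the compared groups alone the TG counts were 2 and 0, and without TG SPARC replicate 1 the TG count that fell was 0. The IL4c count that fell was 1 in 7 of 12 fits that left out 1 library.

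Between injections Jdp2 was higher in IL4c untreated than in TG untreated cells by 0.64 and Mafg by 0.29 on the log2 scale. With SPARC 0 were higher and 1 lower, Maf by −1.34. Over the 24 alternative fits the lower count with SPARC was 1 or 2. Neither untreated call held without IL4c untreated replicate 1 or 2.

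Of 10 tested genes of the EGR family, their NAB corepressors and the serum response factor system (Egr4 was too low to test), 2 rose and 3 fell in IL4c cells (15.1% and 12.7% of all tested genes) and 2 rose and 1 fell in TG cells (6.73% and 4.52% of all tested genes), with medians of −0.15 and −0.16. Elk3, a ternary complex factor, rose by 1.47 and 1.06. The corepressor Nab1 rose by 0.66 and 0.62. Mkl1, an actin-regulated coactivator of serum response factor, fell by 0.62 and 0.61, and the corepressor Nab2 fell by 0.60 in IL4c cells. Egr2, named after its values were seen, averaged 7.64 ± 7.53 CPM in IL4c SPARC and 39.8 ± 10.8 in IL4c untreated libraries and fell by 2.38 (SE 0.60, edgeR adjusted p = 0.016, n = 3 each), while in TG cells its change was −0.98 ± 0.58 (SE, edgeR adjusted p = 0.318, n = 3 each). The difference of these effects was −1.40 ± 0.82 (SE) and did not pass. The TG count that fell ranged from 0 to 2 and was 2 with the replicate block, where 1990 of all 15232 tested genes fell.

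Between injections 0 of the 10 were higher and 1 lower in IL4c untreated cells (Mkl1, by −0.64), and 0 were higher and 2 lower with SPARC (Mkl1 by −0.65 and Nab2 by −0.59). Over the alternative fits the untreated lower count ran from 0 to 5 and the SPARC one from 2 to 4.

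Among 17 other immediate-early genes, 1 rose and 5 fell with SPARC in IL4c cells (15.1% and 12.7% of all tested genes), with a median of −0.48 against 0 over all tested genes, and 1 rose and 2 fell in TG cells (6.73% and 4.52% of all tested genes), with a median of −0.20 against −0.03. Ptgs2, the inducible cyclooxygenase, was the one that rose, by 2.55 ± 0.63 in IL4c and 2.32 ± 0.63 in TG cells (log2 fold change ± SE), at 23.9 CPM in IL4c SPARC and 4.1 in IL4c untreated libraries, and 16.2 CPM in TG SPARC and 3.24 in TG untreated libraries. Ier5l fell by 2.01 and 1.33 and Myc by 0.68 and 0.88. The orphan nuclear receptor genes Nr4a1 and Nr4a2 fell in IL4c cells by 3.42 and 1.18, and Zfp36, which destabilises inflammatory messengers, fell by 0.92, with overlap between the groups. Nr4a1 averaged 1.07 ± 0.194 CPM in IL4c SPARC and 11.5 ± 6.5 in IL4c untreated libraries, and 3.31 ± 2.13 CPM in TG SPARC and 5.17 ± 4.03 in TG untreated libraries (SD, n = 3 each), and the difference of its SPARC effects was −2.77 ± 0.95 (SE, edgeR adjusted p = 0.328, n = 3 each). With the replicate block 2 rose and 8 fell in IL4c cells and 3 rose and 4 fell in TG cells. Of all 15232 tested genes 3474 rose and 3406 fell in IL4c cells with the block, and 2175 and 1990 in TG cells. The TG count that rose was 0 or 2 in 10 of 12 fits that left out 1 library, and the TG count that fell was 4 without TG untreated replicate 1.

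Between injections 2 of the 17 were higher and 3 lower in IL4c untreated cells. Klf4, a factor of alternative activation, was higher by 2.89 ± 0.38 and Klf10 by 0.71, and Gadd45b was lower by −3.49 ± 0.58, Ier5 by −0.98 and Myc by −0.75. With SPARC 1 was higher, Klf4 by 2.06 ± 0.37, and 7 were lower, among them Nr4a2 by −1.45, Ier5l by −1.04 and Csrnp1 by −0.90. Gadd45b in TG untreated libraries ran from 17.1 to 101 CPM. Over the alternative fits the untreated lower count ran from 3 to 6 and the SPARC one from 2 to 9.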

How the data were processed

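Expected counts and FPKM values per gene were deposited by the authors for 12 libraries. Per the submitters' processing notes, CASAVA, bcl2fastq 1.8.4, STAR and RSEM were used. Neither the genome build, the annotation nor the strand setting is stated in those sources. Of the deposited expected counts 7.97% were not whole, and all were rounded. FPKM values, scaled by the authors to length and depth, served for comparing genes within a group and as an alternative, on the log2(FPKM + 1) scale, which understates changes of low genes.

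Counts were tested with edgeR 4.0.16 in R 4.3.3 (TMM scaling, filterByExpr with a minimum count of 10, robust quasi-likelihood fit of all 12 libraries with 8 residual degrees of freedom). Of 47729 genes 15232 were tested, with p-values adjusted over all of them, and intervals are at 95%. DESeq2 1.42.0 and limma 3.58.1 gave alternatives. The procedure was also run on simulated counts. These were drawn independently for each library, without pairs, so they do not bear on the pairing described below. Where a symbol had several rows, the row with most counts was used. The members and lists were chosen with earlier results of these data known. The text names every member, from each list up to 4 passing genes of smallest p per comparison, and the most alike genes. Those named beyond that rule to complete a count, such as Spred1, Errfi1, Dusp7, Egr2, Atf7, Klf10 and Zfp36, were chosen after their values were seen.

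Replicate numbers come from the labels, which do not say what they share. Within an injection, same-numbered SPARC and untreated libraries deviated from their group means together in all 6 pairs (correlations over genes of 0.505 to 0.753), so the numbers were taken to pair them. Libraries of different number gave −0.716 to 0.612, overlapping that range, with TG replicates 2 and 3 at 0.612 and 0.53, so the pairing of those is the least distinct. Between injections same-numbered libraries gave −0.242 to 0.262. No pair of libraries of a group agreed within sampling noise.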

Additional observations from a re-analysis of the deposited data

How the results depend on the processing

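Each member and count was recomputed under up to 25 alternatives. Of the member values 977 kept their direction and their side of the threshold, 39 passed only under the alternative, 21 passed only in the reported fit, and 61 changed sign. All sign changes were of values that passed in neither fit except that of Jun in IL4c untreated against TG untreated cells. The cause of the changes below was not tested.

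The members that rose in TG SPARC cells, 2 as reported, were 1 with total-count scaling, 1 with each of the 3 FPKM settings (log2(FPKM + 1), log2(FPKM + 0.1) and log2(FPKM + 1) with no filter), 1 with the compared groups alone and 1 without both TG libraries numbered 1, and 0 to 3 when 1 library was left out. Those that fell in IL4c SPARC cells, 0 as reported, were 1 with the compared groups alone, 2 with the replicate block, 1 without both TG libraries numbered 1, and 0 to 1 when 1 library was left out. Members higher in IL4c untreated than in TG untreated cells, 1 as reported, were 3 with DESeq2, 0 with unfiltered FPKM, 0 with the compared groups alone, 2 without both TG libraries numbered 1, 2 without both IL4c libraries numbered 3, and 0 to 2 when 1 library was left out. Those lower there, 1 as reported, were 5 without both TG libraries numbered 1 and 1 to 3 when 1 library was left out. Members higher in IL4c SPARC than in TG SPARC cells, 0 as reported, were 1 with RLE scaling, 1 with DESeq2, 1 with a filter of 5 CPM in 3 libraries, 2 without both TG libraries numbered 1, 2 without both IL4c libraries numbered 3, and 0 to 1 when 1 library was left out. Those lower there, 1 as reported, were 4 without both TG libraries numbered 1. By the difference of the SPARC effects 1 member (Jun) was lower without both TG libraries numbered 1.

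Sign changes are given on the log2 scale. Without both TG libraries numbered 1, SPARC in TG cells gave 0.03 for Fos and −0.19 for Dusp1, Jun in IL4c untreated against TG untreated cells gave −0.31, and the difference for Egr1 was 0.17. With total-count scaling, Jund in TG SPARC cells was −0.02, Jun and Egr1 in IL4c untreated against TG untreated cells were −0.04 and −0.02, and Egr1 in IL4c SPARC against TG SPARC cells was −0.05. With log2(FPKM + 1), with log2(FPKM + 0.1) and with no filter, Jund in TG SPARC cells was −0.01 each time, Egr1 in IL4c untreated against TG untreated cells was −0.09, −0.14 and −0.09, and its difference of effects 0.09, 0.16 and 0.09. With limma-voom these Egr1 values were −0.09 and 0.17. Without both IL4c libraries numbered 3, Jund in IL4c SPARC cells was 0.06 and Egr1 in IL4c SPARC against TG SPARC cells was −0.3, a value that was 0 with the compared groups alone.

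When 1 library was left out, SPARC effects in TG cells ran from −0.63 to 0.23 for Atf3, from −0.17 to 0.46 for Dusp1, from −0.19 to 0.13 for Fos, from −0.47 to 0.17 for Jun and from −0.1 to 0.17 for Jund. In IL4c cells they ran from −0.77 to 0.15 for Egr1 and from −0.13 to 0.01 for Jund. IL4c untreated against TG untreated ran from −0.47 to 0.44 for Egr1 and from −0.31 to 0.31 for Jun, and IL4c SPARC against TG SPARC from −0.3 to 0.59 for Egr1. The difference of effects ran from −0.5 to 0.37 for Atf3, from −0.45 to 0.48 for Egr1, from −0.45 to 0.13 for Ier3, from −0.08 to 0.24 for Junb and from −0.21 to 0.06 for Jund.

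The replicate block, fitted for the SPARC comparisons, added calls on Fosl2 in TG and on Jun and Atf3 in IL4c cells, changed no other member call, and gave 0.08 for the Egr1 difference. Over all genes, the block gave 2175 higher and 1990 lower in TG SPARC (1025 and 689 as reported), 3474 and 3406 in IL4c SPARC (2301 and 1936), and 228 and 244 for the difference (0 and 0). With the compared groups alone, TG SPARC gave 367 and 138 and IL4c untreated against TG untreated 597 lower (1649). Without both TG libraries numbered 1, genes lower in IL4c SPARC were 3145, IL4c untreated against TG untreated gave 2953 (1548) and 3049, IL4c SPARC against TG SPARC 2731 and 2856 (1664 and 1532), and the difference 358 and 478. Without both IL4c libraries numbered 3, genes lower in IL4c SPARC were 1128 and in IL4c untreated against TG untreated 1095. DESeq2 gave 1118 lower in TG SPARC. Without the low-count filter edgeR gave 365 lower in TG SPARC and 922 lower in IL4c untreated against TG untreated, where total-count scaling gave 2790 lower and the FPKM settings 920 to 933 higher. Unfiltered FPKM gave 495 higher in TG SPARC. When 1 library was left out, higher and lower counts ran from 475 to 1279 and 262 to 816 in TG SPARC, 1407 to 2789 and 1100 to 2389 in IL4c SPARC, 853 to 2316 and 523 to 2246 in IL4c untreated against TG untreated, 1035 to 2236 and 665 to 2057 in IL4c SPARC against TG SPARC, and 0 to 117 and 0 to 161 for the difference. For the difference DESeq2 gave 171 and 193, and the remaining settings at most 32 higher and 6 lower. Total-count scaling moved the median of all genes to −0.16 in IL4c untreated against TG untreated cells, so that Jun and Egr1 there are best read relative to it. Depth limited Fosb, which could not be tested.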
